A study of Rattus norvegicus with 28 samples.

Results

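The 9 genes described here encode proteins that build and align the synapse: the neurexins Nrxn2 and Nrxn3, the neuroligins Nlgn1, Nlgn2 and Nlgn3, the active zone proteins Bsn (bassoon), Pclo (piccolo) and Rims1 (RIM1), and the vesicle protein Syp (synaptophysin). They were taken by gene symbol as 9 of the 36387 genes and assembled transcripts in the deposited table, and each symbol had 1 record. Transcripts were measured by RNA-seq in rat prefrontal cortex, the frontal association area, from Sprague-Dawley males that were 8 weeks old when they arrived and adult when sampled. Every animal had a pair of intraperitoneal injections, first ketanserin or its 5% Tween-80 solvent, then psilocybin or its saline solvent, and tissue was collected 24 h later. Psilocybin is a prodrug of psilocin, an agonist at serotonin receptors, and ketanserin is an antagonist of the serotonin 2A receptor. The 7 groups of 4 animals were psilocybin at 1 mg/kg after Tween-80, psilocybin at 3 mg/kg after Tween-80, ketanserin at 1 mg/kg with saline, ketanserin at 3 mg/kg with saline, ketanserin and psilocybin at 1 mg/kg of each, ketanserin and psilocybin at 3 mg/kg of each, and Tween-80 with saline (vehicle). All groups, vehicle included, had therefore been injected with Tween-80.

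Neurexins sit in the presynaptic membrane and bind neuroligins of the postsynaptic membrane across the cleft. Nlgn1 is known mainly from excitatory synapses, Nlgn2 mainly from inhibitory synapses, and Nlgn3 from both kinds. Inside the terminal, bassoon and piccolo are very large scaffold proteins that hold vesicles near the release site, RIM1 ties vesicles to calcium channels and the fusion machinery, and synaptophysin is an abundant membrane protein of the vesicle itself. Neurexin genes make long and short protein forms from separate start sites, which counts per gene do not tell apart.

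No member differed between groups past an adjusted p of 0.05 in any of 21 comparisons, and the lowest adjusted p among the 189 tests was 0.693 (edgeR quasi-likelihood F test, Benjamini-Hochberg adjustment over 17404 genes). An unadjusted p under 0.05 was found in 5 of these tests, and DESeq2 also called 0 members, with 6 tests under 0.05 unadjusted. Of all genes 1.3 to 5.74% had an unadjusted p under 0.05 and 0 to 0.0172% passed, depending on the comparison. The members differed widely in how far they varied between animals of the same group. Levels of Pclo, Nrxn3, Nlgn1 and Rims1 ranged over 6.85-fold or more across the 28 animals, whereas Nlgn2, Syp and Nrxn2 ranged over 1.48-fold, 1.57-fold and 1.60-fold. Animals with much Pclo also had much Nrxn3, Nlgn1, Rims1, Nlgn3 and Bsn, and little Syp.

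Promoter sequences of 3 members are shown because Pclo and Nlgn1 moved together over the animals and Syp moved against them. They are RefSeq sequences of the assembly GRCr8, from 250 bases before to 50 bases after the start of the gene, all on the minus strand, and 7 of the 9 members had an entry. Capitals mark the GC box, searched as GGGCGG on both strands (CCGCCC on the other). The Pclo window lies at chr4:21005062-21005361, the Nlgn1 window at chr2:110930627-110930926 and the Syp window at chrX:17536400-17536699.
Pclo: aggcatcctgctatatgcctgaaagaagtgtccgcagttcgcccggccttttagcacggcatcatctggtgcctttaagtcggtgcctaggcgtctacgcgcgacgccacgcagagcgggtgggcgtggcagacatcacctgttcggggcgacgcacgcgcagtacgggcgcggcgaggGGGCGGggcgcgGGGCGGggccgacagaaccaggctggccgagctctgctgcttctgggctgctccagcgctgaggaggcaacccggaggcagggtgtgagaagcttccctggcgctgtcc
Nlgn1: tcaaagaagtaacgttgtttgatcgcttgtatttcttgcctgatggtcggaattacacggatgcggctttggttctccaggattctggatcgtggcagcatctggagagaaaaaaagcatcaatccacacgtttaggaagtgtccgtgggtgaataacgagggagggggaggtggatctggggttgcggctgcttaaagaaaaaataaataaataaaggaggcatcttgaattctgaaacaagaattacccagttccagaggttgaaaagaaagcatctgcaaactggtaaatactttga
Syp: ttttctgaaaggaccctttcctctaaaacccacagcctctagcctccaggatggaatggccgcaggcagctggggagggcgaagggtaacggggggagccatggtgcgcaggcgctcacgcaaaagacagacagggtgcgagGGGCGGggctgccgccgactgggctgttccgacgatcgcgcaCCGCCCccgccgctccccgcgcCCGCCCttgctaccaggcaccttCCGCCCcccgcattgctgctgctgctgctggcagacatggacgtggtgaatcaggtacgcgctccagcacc
Syp held 4 GC boxes in this window and Pclo 2, and Nlgn1 held none, with G or C at 67.0%, 67.7% and 43.3% of their bases. Among the other members with an entry, Nlgn2 and Rims1 held 3 each, Bsn 2 and Nlgn3 none. Of all 33469 promoters of this length, 33.1% held a GC box. Neither the cAMP response element (TGACGTCA) nor the EGR site (GCGTGGGCG), the motifs of activity-dependent transcription factors, occurred in the windows of the 7 members. They occurred in 1.83% and 0.544% of all promoters. In these windows Pclo and Nlgn1 differed in GC boxes and in base composition. The part of the promoters in the levels was not tested, and the windows were not matched to the rn6 records that were counted.

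Libraries held 12783067 to 18538414 counts (median 15366977.5), and the 9 members had from 44 counts (Nlgn1, lowest library) to 31587 (Syp, highest). No pair of libraries agreed within sampling noise, with a mean chi-square per gene of 5.89 to 162 between pairs. Mitochondrial transcripts took 6.98 to 11.6% of a library. All 6 general, 5 excitatory and 6 inhibitory neuron markers passed the filter on low counts, as did the markers of oligodendrocytes, astrocytes and microglia. Of 5 endothelial and mural markers 2 (Cldn5 and Pecam1) were not among the tested genes. Each of the 2 had a median of 0 over the libraries, which a symbol without a record would also give. Replicate 4 of the group given both drugs at 3 mg/kg stood apart, with 19602 genes and transcripts that had no read, where every other library had 15344 to 16657 of these. It was kept, and the counts and differences of the members with both drugs at 3 mg/kg are also given without it below. In such tissue, fewer cells of a type and less RNA per cell cannot be told apart.

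Per length, Syp was the most abundant member, at a mean of 1152 FPKM over the 28 animals, followed by Nrxn2 at 112, Nlgn2 at 88.5, Bsn at 34.0, Nlgn3 at 30.0, Rims1 at 23.6, Nrxn3 at 10.7, Nlgn1 at 5.53 and Pclo at 4.45 (FPKM, fragments per kilobase of gene model scaled to library size, the authors' deposited values). The lowest Syp level, 924 FPKM, lay above the highest Nrxn2 level, 140.4 FPKM, and the lowest Nlgn2 level, 75.5, above the highest Bsn level, 63.9. Other neighbours in this order overlapped in range. Within each animal Nrxn2 still lay above Nlgn2, Rims1 above Nrxn3 and Nrxn3 above Nlgn1 in 28 of 28, and Bsn lay above Nlgn3 in 27, Nlgn1 above Pclo in 24 and Nlgn3 above Rims1 in 23. These levels depend on the length of the gene model in the table. The Nrxn3 model held 1293 bases and that of Nlgn1 1827 bases, against 16047 for Bsn and 11778 for Pclo. The records of Nrxn3 and Nlgn1 in the table are much shorter than these genes are known to be, so their counts cover part of the transcripts and their FPKM are levels over that part.

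Among the neuroligins, Nlgn2 made up 63.7 to 77.0% of the summed FPKM of the 3 genes (median 71.6%), Nlgn3 20.8 to 27.99% (23.8%) and Nlgn1 1.49 to 9.05% (4.12%). Since Nlgn1 was counted over its short record, these are shares of the FPKM and may not be shares of neuroligin transcripts. The vehicle animals alone spanned 63.7 to 75.0% for Nlgn2 and 1.70 to 8.91% for Nlgn1, most of the range over all animals. The medians of the 6 treated groups lay within the vehicle range for Nlgn2 (69.3 to 74.3%) and for Nlgn1 (3.63 to 5.13%). For Nlgn3 the medians after psilocybin at 1 mg/kg, 23.0%, and after ketanserin at 1 mg/kg, 22.4%, lay below the lowest vehicle animal, at 23.3%. The values that follow are CPM, counts scaled to library size after TMM normalization, which allows for differences in RNA composition. They are not divided by length, so they compare animals and not genes.

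**Figure D1:**
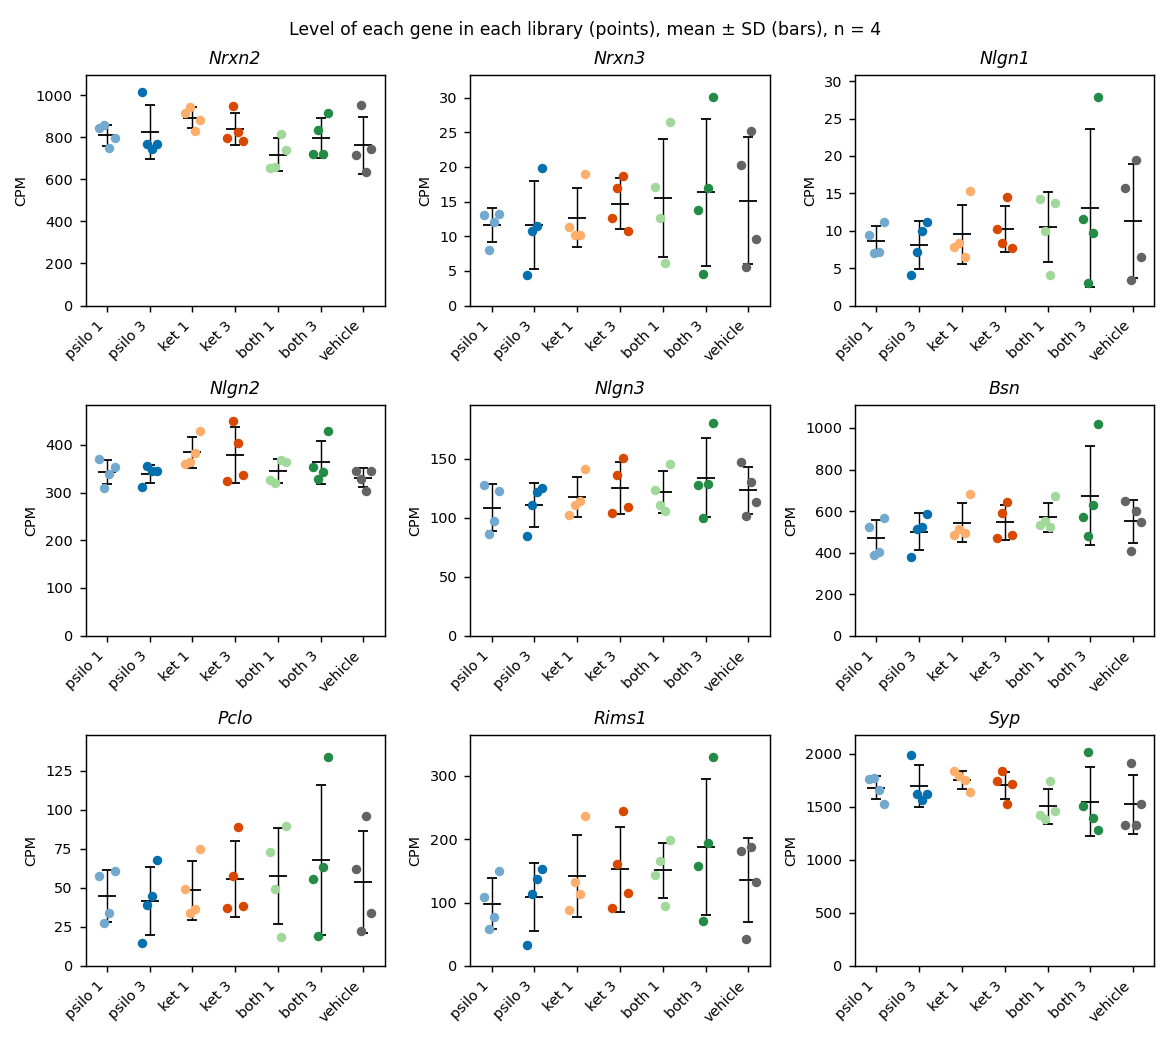
Level of each member in CPM (vertical axis, from 0) in each of the 28 animals (points) by group, with mean and SD (bars, n = 4). The labels psilo, ket and both stand for psilocybin, ketanserin and both drugs, with the dose in mg/kg, and vehicle is at the right. The vertical scatter within a group was narrow for Nlgn2 and Syp and wide for Pclo, Nrxn3 and Nlgn1, where vehicle alone covered most of the range.

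The neuroligin of inhibitory synapses, Nlgn2 (ENSRNOG00000015430, rn6 chromosome 10, 56431573 to 56444847, minus strand), had the narrowest spread of the 9, by range and by within-group SD of log2 CPM. It was at 359, 364, 384 and 429 CPM after ketanserin at 1 mg/kg, against 346, 329, 303 and 345 CPM in vehicle. All 4 ketanserin animals lay above all 4 vehicle animals, and of all genes 1.87% did not overlap between these groups. Nlgn2 was the 1 member for which any treated group and vehicle did not overlap. At 3 mg/kg of ketanserin the values were 324, 449, 405 and 337 CPM, which overlapped with vehicle. The log2 fold change against vehicle was 0.22 (SE 0.100, 95% interval 0.01 to 0.42) at 1 mg/kg and 0.20 (SE 0.100, -0.01 to 0.40) at 3 mg/kg. The unadjusted p at 1 mg/kg was 0.0407 and the edgeR adjusted p was 1.00. Leaving out 1 animal at a time gave 0.16 to 0.27 at the lower dose, the lowest without ketanserin replicate 4, and the unadjusted p stayed under 0.05 in 5 of 8 such fits. After psilocybin alone Nlgn2 was at 369.5, 311, 339 and 353 CPM at 1 mg/kg and at 312, 355, 346 and 346 CPM at 3 mg/kg. With both drugs it averaged 345 ± 25.2 CPM at 1 mg/kg and 364 ± 45.1 CPM at 3 mg/kg, against 331 ± 19.9 CPM in vehicle (SD, n = 4).

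Nlgn3 (ENSRNOG00000003812, chromosome X, 71199491 to 71222732, plus strand) averaged 108 ± 20.0 CPM after 1 mg/kg and 111 ± 18.8 CPM after 3 mg/kg of psilocybin, 117 ± 16.9 and 125 ± 22.0 CPM at these doses of ketanserin, and 122 ± 17.8 and 134 ± 33.5 CPM with both drugs, against 123 ± 19.9 CPM in vehicle (SD, n = 4). Every treated group overlapped with vehicle, whose animals were at 148, 102, 130.5 and 114 CPM. Another record on the same strand overlaps this gene, so its counts are uncertain where reads are shared.

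Nlgn1 (ENSRNOG00000032576, chromosome 2, 111059105 to 111065413, minus strand), the neuroligin of excitatory synapses, was counted over a short record that spans 6309 bases of the genome. In vehicle its 4 animals were at 15.7, 3.43, 19.5 and 6.51 CPM, a 5.69-fold range. With both drugs at 3 mg/kg they were at 11.6, 2.97, 9.73 and 27.9 CPM, which holds the lowest and the highest animal of the study. Group means ran from 8.10 ± 3.17 CPM after psilocybin at 3 mg/kg to 13.1 ± 10.6 CPM after both drugs at 3 mg/kg, around 11.3 ± 7.57 CPM in vehicle (SD, n = 4). The animal at 27.9 CPM was the library that stood apart, and the other 3 of its group averaged 8.11 ± 4.55 CPM (SD, n = 3). The 95% intervals of its log2 fold changes against vehicle reached 1.07 or more to either side, so that a difference of 2-fold lay within their error.

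Nrxn2 (ENSRNOG00000021103, chromosome 1, 221801524 to 221908045, plus strand), the more abundant neurexin here, was at 651, 658, 816 and 739 CPM with both drugs at 1 mg/kg, against 916, 942, 829 and 881 CPM after ketanserin alone at that dose. These 4 animals all lay below those given ketanserin alone, and of all genes 3.13% did not overlap between these groups. On the log2 scale the difference was -0.32 (SE 0.117, -0.56 to -0.08), with an unadjusted p of 0.0119 and an edgeR adjusted p of 1.00. It ran from -0.38 to -0.28 when animals were left out in turn. Vehicle animals were at 717, 951, 635 and 741 CPM and overlapped with all 6 treated groups. Against vehicle the log2 fold changes were 0.23 after ketanserin at 1 mg/kg (unadjusted p 0.0612), 0.14 after ketanserin at 3 mg/kg, 0.09 and 0.11 for psilocybin at 1 and 3 mg/kg, and -0.09 and 0.07 for both drugs. With animals left out in turn, the value after ketanserin at 1 mg/kg ran from 0.16 without vehicle replicate 3 to 0.37 without vehicle replicate 2. A ribosomal 5S_rRNA record on the opposite strand overlaps Nrxn2 and another overlaps Nrxn3, and without the strand setting of the counting their reads cannot be told apart.

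Nrxn3 (ENSRNOG00000047574, chromosome 6, 113898420 to 114067055, plus strand) was at 13.7, 4.53, 17.0 and 30.2 CPM with both drugs at 3 mg/kg and at 20.3, 5.54, 25.1 and 9.60 CPM in vehicle. Single animals were as far apart after psilocybin at 3 mg/kg (4.40, 10.8, 11.5 and 19.8 CPM) and with both drugs at 1 mg/kg (17.1, 12.6, 6.14 and 26.5 CPM). They lay closer together after psilocybin at 1 mg/kg, at 8.03 to 13.2 CPM, and after ketanserin, at 10.2 to 19.01 CPM at 1 mg/kg and 10.7 to 18.6 CPM at 3 mg/kg. Its log2 fold changes against vehicle lay between -0.39 and 0.11 with intervals that reached about 1.02 to either side.

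In the active zone, Bsn (ENSRNOG00000030714, chromosome 8, 116873721 to 116965396, minus strand) was at 572, 478, 631 and 1017 CPM with both drugs at 3 mg/kg, against 379, 513, 526 and 587 CPM after psilocybin alone at 3 mg/kg. The groups overlapped, and the animal at 1017 CPM was the library that stood apart. The log2 fold change of 0.43 (SE 0.193, 95% interval 0.03 to 0.83, unadjusted p 0.0354, edgeR adjusted p 0.693) was 0.16 without that animal and 0.57 without replicate 2 of the combination. Against vehicle, at 648, 407, 601 and 546 CPM, the combination had a log2 fold change of 0.29 (-0.10 to 0.69). Without the library that stood apart it was 0.03. Bsn also has an overlapping record on its own strand, with the same uncertainty.

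Pclo (ENSRNOG00000005726, chromosome 4, 16496895 to 16669368, minus strand), the close relative of Bsn, had the largest within-group SD of log2 CPM of the 9, 0.844, while by the range over all animals Rims1 (10.1-fold) and Nlgn1 (9.38-fold) were wider than Pclo (9.14-fold). Psilocybin animals were at 57.5, 27.5, 34.2 and 60.8 CPM at 1 mg/kg and at 14.6, 39.3, 44.8 and 67.9 CPM at 3 mg/kg. Ketanserin animals were at 49.2, 33.7, 36.2 and 75.0 CPM and at 37.4, 57.4, 89.3 and 38.5 CPM. With both drugs they were at 72.7, 49.2, 18.8 and 89.6 CPM and at 55.9, 18.98, 63.05 and 134 CPM, against 62.3, 22.6, 96.3 and 34.1 CPM in vehicle. In every group the highest animal lay at least 2.22-fold above the lowest, and each treated group had its median inside the vehicle range. With both drugs at 3 mg/kg the log2 fold change against vehicle was 0.33 (-0.77 to 1.44), and it turned to -0.23 without replicate 4. Bsn counts exceeded Pclo counts 6.24-fold to 27.9-fold in CPM across the animals.

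Rims1 (ENSRNOG00000011000, chromosome 9, 28442229 to 28973246, minus strand) averaged 98.4 ± 40.0 CPM after 1 mg/kg and 109 ± 53.7 CPM after 3 mg/kg of psilocybin, 142 ± 65.0 and 153 ± 67.4 CPM at these doses of ketanserin, and 151 ± 43.4 and 188 ± 108 CPM with both drugs, against 136 ± 66.5 CPM in vehicle (SD, n = 4). The animal at 329 CPM with both drugs at 3 mg/kg was again replicate 4. Without it the log2 fold change against vehicle was 0.05, against 0.47 with all animals. Vehicle animals were at 181, 42.9, 187 and 133 CPM, so that a single vehicle animal lay far below the other 3.

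The vesicle protein gene Syp (ENSRNOG00000059720, chromosome X, 15695566 to 15707436, minus strand) was at 1839, 1793, 1750.1 and 1636 CPM after ketanserin at 1 mg/kg and at 1743, 1834, 1531 and 1713 CPM at 3 mg/kg, against 1329, 1917, 1330.5 and 1525 CPM in vehicle. The vehicle animal with the most Syp, replicate 2, was the vehicle animal with the least Pclo, Rims1, Bsn, Nrxn3, Nlgn1 and Nlgn3. Log2 fold changes of Syp against vehicle were 0.14 and 0.15 for psilocybin at 1 and 3 mg/kg, 0.20 and 0.16 for ketanserin, and -0.02 and 0.02 for both drugs. Their 95% intervals reached 0.258 to either side and all held 0. With animals left out in turn, the value after ketanserin at 1 mg/kg ran from 0.14 without vehicle replicate 1 to 0.35 without vehicle replicate 2.

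**Figure D2:**
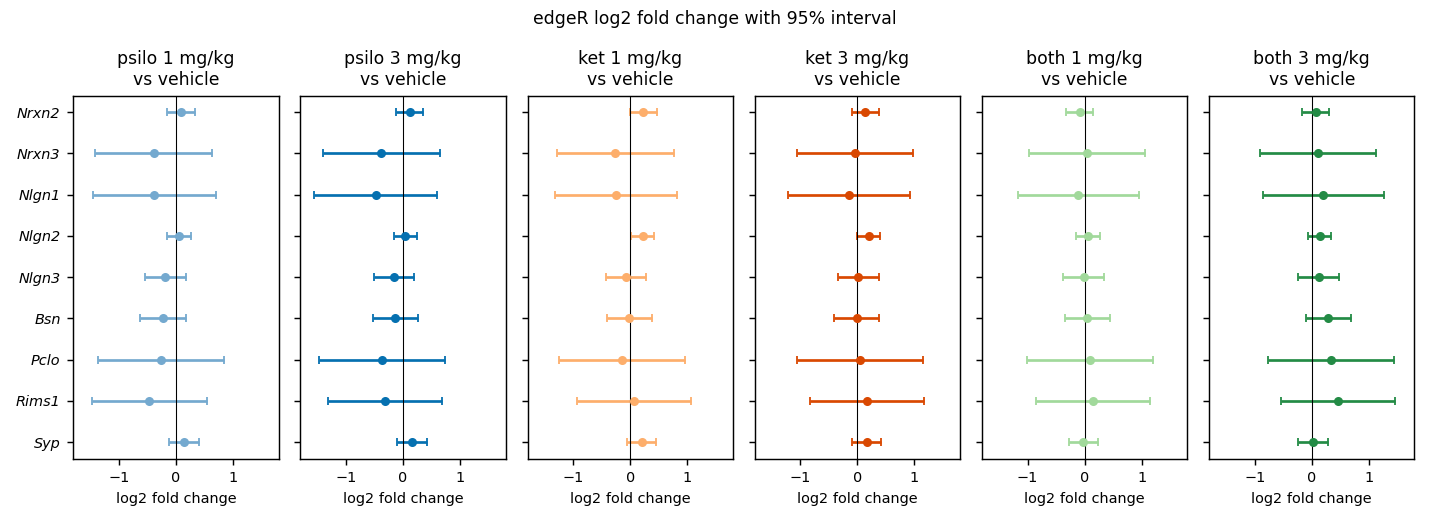
Log2 fold change of each member (rows) in each treated group against vehicle (panels), from edgeR, with 95% intervals (bars). Intervals are narrow for Nrxn2, Nlgn2 and Syp and wide for Nrxn3, Nlgn1, Pclo and Rims1, and Nlgn2 after ketanserin at 1 mg/kg is the point whose interval, 0.01 to 0.42, leaves out 0.

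Taking the members together against vehicle, 0 of 9 passed after psilocybin at 1 mg/kg, where 0% of all genes passed and 1.66% had an unadjusted p under 0.05. At 3 mg/kg of psilocybin 0 of 9 passed as well, with 0% and 3% of all genes. At each of these doses 3 members lay above vehicle and 6 below, with median log2 fold changes of -0.22 and -0.16 against -0.01 over all genes. The members above vehicle were Nrxn2, Nlgn2 and Syp at both doses. Of the tested genes 1.36% and 2.11% did not overlap with vehicle at 1 and 3 mg/kg, and none of the members did so.

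After ketanserin at 1 mg/kg 1 of 9 members, Nlgn2, had an unadjusted p under 0.05, beside 2.06% of all genes, and 0 passed adjusted (0% of all genes). Non-overlap with vehicle was seen in 1 of 9 members and in 1.87% of all genes. At 3 mg/kg 0 of 9 had an unadjusted p under 0.05 (2% of all genes) and 0 were without overlap (1.7%). Members lay above vehicle in 4 of 9 cases at 1 mg/kg and in 6 of 9 at 3 mg/kg, with medians of -0.02 and 0.05 against -0.02 over all genes at each dose.

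With both drugs at 1 mg/kg 5 members lay above and 4 below vehicle (median 0.04, against -0.01 over all genes), and 0 had an unadjusted p under 0.05 (1.3% of all genes). With both at 3 mg/kg all 9 lay above vehicle (median 0.14, against -0.02), 0 passed (0.00575% of all genes, 1 gene) and 0 had an unadjusted p under 0.05 (3.13%). Non-overlap with vehicle held for none of the members at either dose, and for 1.32% and 1.14% of genes. Leaving out replicate 4 of that group, 4 members lay above and 5 below vehicle, with Nlgn1 at -0.47, Nrxn3 at -0.36, Pclo at -0.23, Nlgn3 at -0.05 and Nrxn2 at -0.0024. The 6 comparisons share the vehicle animals, so their signs are not independent of each other.

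Adding ketanserin to psilocybin was tested by setting the combination against psilocybin alone. At 1 mg/kg 7 members lay above psilocybin alone and 2, Nrxn2 and Syp, below (median 0.27, against 0.01 over all genes), and 0 of 9 had an unadjusted p under 0.05 (4.13% of all genes). At 3 mg/kg 7 lay above and the same 2 below (median 0.43, against -0.01), and Bsn, described above, was the 1 of 9 with an unadjusted p under 0.05 (5.74% of all genes). Rims1 differed by 0.78 (95% interval -0.22 to 1.78), Pclo by 0.70 (-0.41 to 1.81) and Nlgn1 by 0.68 (-0.39 to 1.76) at that dose. Without replicate 4 of the combination the differences were 0.36 for Rims1, 0.14 for Pclo and 0.01 for Nlgn1, with 7 members still above and 2 below (median 0.02).

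Adding psilocybin to ketanserin gave 6 members above and 3 below ketanserin alone at each dose. The 3 below were Nrxn2, Nlgn2 and Syp, by -0.32, -0.15 and -0.22 at 1 mg/kg and by -0.07, -0.06 and -0.14 at 3 mg/kg. Nrxn2 at 1 mg/kg was the 1 of 9 with an unadjusted p under 0.05 (2.92% of all genes), and at 3 mg/kg there was none (3.41%). Without replicate 4 of both drugs at 3 mg/kg, 1 member (Bsn, 0.03) lay above and 8 lay below ketanserin alone at that dose, with Nlgn1 at -0.33, Nrxn3 at -0.32, Pclo at -0.27, Rims1 at -0.12 and Nlgn3 at -0.07.

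Doses were compared within each treatment. Psilocybin at 3 against 1 mg/kg gave log2 fold changes from -0.11 (Pclo) to 0.15 (Rims1), and 0 of 9 had an unadjusted p under 0.05 (3.24% of all genes). Ketanserin gave -0.09 (Nrxn2) to 0.22 (Nrxn3) and 0 of 9 (1.64%). Both drugs gave 0.04 (Syp) to 0.32 (Rims1), all 9 higher at the higher dose, and 0 of 9 (3.3%). With replicate 4 of the higher dose left out, 2 members, Syp (0.13) and Nrxn2 (0.08), lay above and 7 below. Those 7 were Nrxn3 at -0.41, Nlgn1 at -0.37, Pclo at -0.32, Rims1 at -0.10, Nlgn3 at -0.04, Bsn at -0.02 and Nlgn2 at -0.01.

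Psilocybin was also set against ketanserin at matched doses. All 9 members lay lower after psilocybin at 1 mg/kg and at 3 mg/kg, with medians of -0.13 and -0.17 against 0.01 and 0.00 over all genes. The differences were small beside their error, from -0.53 (Rims1, 95% interval -1.54 to 0.47) to -0.06 (Syp) at 1 mg/kg and from -0.48 (Rims1, -1.48 to 0.52) to -0.01 (Syp) at 3 mg/kg. Of 9 members 0 had an unadjusted p under 0.05 at either dose, beside 1.97% and 3.68% of all genes. Some of these signs rested on single animals. Without replicate 4 of ketanserin at 1 mg/kg, Nrxn3 was at 0.13, Nlgn1 at 0.20 and Pclo at 0.18. At 3 mg/kg Nrxn2 was at 0.03 without replicate 2 of ketanserin, and Syp at 0.03 without replicate 3 of psilocybin. The remaining members at each dose stayed lower after psilocybin whichever animal was left out. The members are not independent of each other, since 6 of them varied together over the animals.

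The interaction asks whether the combination differs from the sum of the separate drugs on the log2 scale (the effect of both drugs, less the effect of each drug, all against vehicle). At 1 mg/kg Nrxn2 had an interaction of -0.41 (SE 0.166, 95% interval -0.75 to -0.07, unadjusted p 0.0210, edgeR adjusted p 0.938), the 1 of 9 under 0.05 unadjusted beside 4.09% of all genes. It ran from -0.55 to -0.33 as animals were left out. Syp had -0.36 (-0.73 to 0.00, unadjusted p 0.0505) and Nlgn2 -0.21 (-0.50 to 0.08). At 3 mg/kg these 3 were at -0.19, -0.29 and -0.10, with 0 of 9 under 0.05 (3.2% of all genes). The other 6 members had interactions above 0, with and without replicate 4 of both drugs at 3 mg/kg, at both doses, from 0.24 (Nlgn3) to 0.69 (Nrxn3) and from 0.26 (Nlgn3) to 0.83 (Nlgn1), none with an unadjusted p under 0.05. Without replicate 4 of both drugs at 3 mg/kg the value of Nlgn1 was 0.15 and that of Pclo 0.09, against 0.66 for Pclo with all animals.

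Pooling both doses against vehicle, Nlgn2 had a log2 fold change of 0.21 for ketanserin (SE 0.0873, 95% interval 0.03 to 0.39, unadjusted p 0.0263, edgeR adjusted p 1.00), and it was the 1 of 9 under 0.05 unadjusted, beside 2.1% of all genes. For psilocybin 0 of 9 (1.96% of all genes) and for both drugs 0 of 9 (1.8%; 0.00575% adjusted) were under 0.05. In the test of any difference among the 7 groups the lowest unadjusted p of a member was 0.220 (Nrxn2), where 2.22% of all genes were under 0.05 and 0.0172% passed adjusted. In all, 5 of the 189 member tests had an unadjusted p under 0.05.

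The members differed in how far animals of the same group varied. The SD of log2 CPM within groups was 0.844 for Pclo, 0.814 for Nlgn1, 0.779 for Nrxn3 and 0.775 for Rims1, against a median of 0.226 over the 10162 genes whose log2 CPM averaged 3 or more, and these 4 lay at percentiles 97.5 to 98.3 of those genes. It was 0.287 for Bsn and 0.258 for Nlgn3, at percentiles 68.2 and 60.6. For Syp it was 0.176, for Nrxn2 0.164 and for Nlgn2 0.136, at percentiles 30.2, 25.1 and 14.3. Group membership held 3.03% of the variance of Nlgn1, 5.07% of Nrxn3 and 5.82% of Pclo, against a median of 18.1% over genes. It held 31.6% for Nrxn2, 28.6% for Nlgn2, 25.4% for Syp, 23.8% for Bsn, 16.1% for Rims1 and 15.2% for Nlgn3. In the edgeR test of any difference among the 7 groups, Nrxn2 and Nlgn2 had an unadjusted p of 0.220 and 0.256. Without replicate 4 of both drugs at 3 mg/kg the SD of Pclo was 0.798 and that of Nlgn1 0.741.

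Of the 9 members 6 varied together. All 15 pairs among Pclo, Nrxn3, Nlgn1, Rims1, Nlgn3 and Bsn had a Pearson r of 0.774 to 0.967 over 28 animals, and the weakest was 0.743 without the 2 animals farthest from the median and 0.823 on deviations from group means. Pclo with Nrxn3 was the closest pair (r 0.967, Spearman rho 0.961, 2-sided permutation p 1e-05 for each, the smallest that 100000 permutations can give, adjusted p 1.8e-05 and 2e-05 over 36 relations). Pclo with Nlgn1 had r 0.937 (rho 0.907, permutation p 1e-05 each). Syp ran against these 6, with r of -0.812 to -0.696, the weakest -0.581 without the 2 farthest animals and -0.735 on deviations from group means. With Pclo it had r -0.767 (rho -0.712, permutation p 1e-05 and 4e-05, adjusted 1.8e-05 and 6.86e-05). Counted as CPM, Syp exceeded Pclo 9.62-fold in 1 animal and 136-fold in another.

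**Figure D3:**
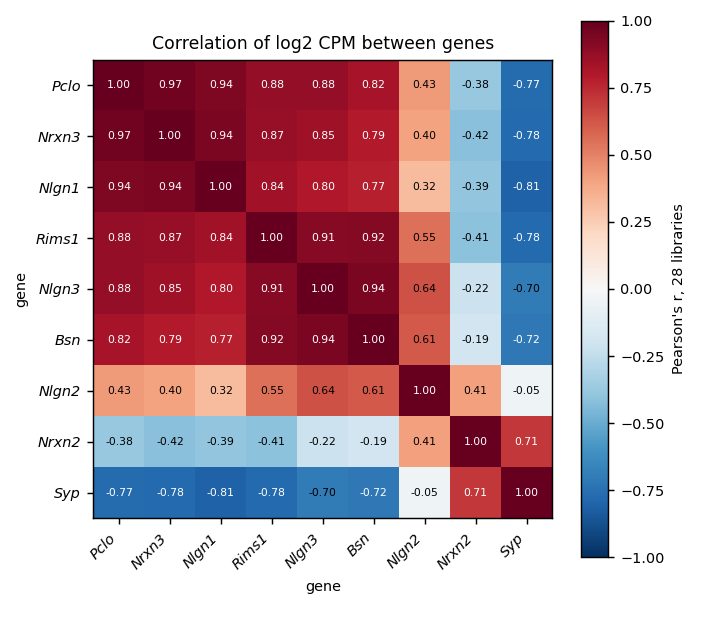
Pearson's r of log2 CPM between each pair of members over 28 animals, from -1 (blue) to 1 (red). The block of Pclo, Nrxn3, Nlgn1, Rims1, Nlgn3 and Bsn is red throughout (0.77 to 0.97), and Syp is blue against all 6 (-0.81 to -0.70).

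Nrxn2 and Nlgn2 stood outside that block. Nrxn2 went with Syp (r 0.706, rho 0.779, permutation p 4e-05 and 1e-05, adjusted 6.55e-05 and 2e-05; r 0.620 without the 2 farthest animals). Nlgn2 had no detectable relation to Syp (r -0.0456, rho 0.00930, permutation p 0.820 and 0.964). It had r 0.640 with Nlgn3 (rho 0.542, permutation p 0.00027 and 0.0034, adjusted 0.000423 and 0.00532), and r 0.548 without the 2 farthest animals. The neurexins Nrxn2 and Nrxn3 ran weakly against each other (r -0.416, rho -0.437, permutation p 0.0275 and 0.0203, adjusted 0.0366 and 0.0292), with r -0.218 without the 2 farthest animals and -0.471 on deviations from group means.

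Library-wide measures moved with the same members. For each library the Spearman rho across genes between its deviation from the mean log2 CPM and the length of the gene model was taken, and it ran from -0.513 to 0.513. This rho had r 0.883 with Pclo (rho 0.917), 0.877 with Rims1 (0.950) and 0.873 with Nlgn3 (0.930), and r -0.825 with Syp (-0.814; all permutation p 1e-05, adjusted 2.37e-05 over 45 relations). On deviations from group means these r were 0.901, 0.895, 0.876 and -0.841, and without the 2 farthest libraries 0.866, 0.866, 0.851 and -0.839. Members are among the genes that make up that rho. Nrxn3 and Nlgn1, with short records that cover part of their transcripts, had r 0.862 and 0.843 with it.

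The share of mitochondrial transcripts ran the other way, with r -0.806 for Pclo (rho -0.791) and 0.771 for Syp (0.754; permutation p 1e-05 each, adjusted 2.37e-05). The summed level of 6 inhibitory neuron markers had r -0.848 with Pclo (rho -0.828) and -0.897 with Rims1 (-0.813; permutation p 1e-05 each). Among other genes at a mean log2 CPM of 3 or more, 27.4% had r under -0.6 with Pclo and 28.2% with Rims1. These shares are of single genes at a weaker r than the marker sum had, and none was taken for sums. Correlations with the members were computed only for the marker sums of inhibitory neurons, oligodendrocytes and astrocytes. For the other cell marker sums none was computed. All 6 inhibitory neuron markers were tested and none had a median of 0 over the libraries. Their sum was 899 to 1218 and 852 to 1288 CPM after psilocybin at 1 and 3 mg/kg, 886 to 1054 and 825 to 1024 CPM after ketanserin at these doses, and 797 to 1030.1 and 722 to 1069 CPM with both drugs, against 932 to 1176 CPM in vehicle. The summed level of 6 oligodendrocyte markers ran from 2247 to 8408 CPM and had r -0.287 with Pclo (rho -0.262, permutation p 0.141 and 0.177, adjusted 0.151 and 0.199). With Nlgn3 it had r -0.434 (rho -0.384, permutation p 0.0214 and 0.0453, adjusted 0.0291 and 0.0618) and with Bsn r -0.415 (rho -0.313, permutation p 0.0301 and 0.106, adjusted 0.0399 and 0.129). The astrocyte markers had r 0.593 with Pclo (rho 0.628, permutation p 0.0009 and 0.00035, adjusted 0.00169 and 0.000716). The part of length, mitochondrial share and cell markers in the pattern of the members was not tested. With a smooth trend on model length taken out of each library, the SD within groups was lower for Bsn (0.113), Syp (0.0983), Nlgn3 (0.179), Nlgn2 (0.114), Pclo (0.611) and Rims1 (0.639), and higher for Nrxn2 (0.287, against 0.164 with the trend), Nrxn3 (0.889) and Nlgn1 (0.864). The median over genes was 0.1999. The length taken for Nrxn3 and Nlgn1 is that of their short records.

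**Figure D4:**
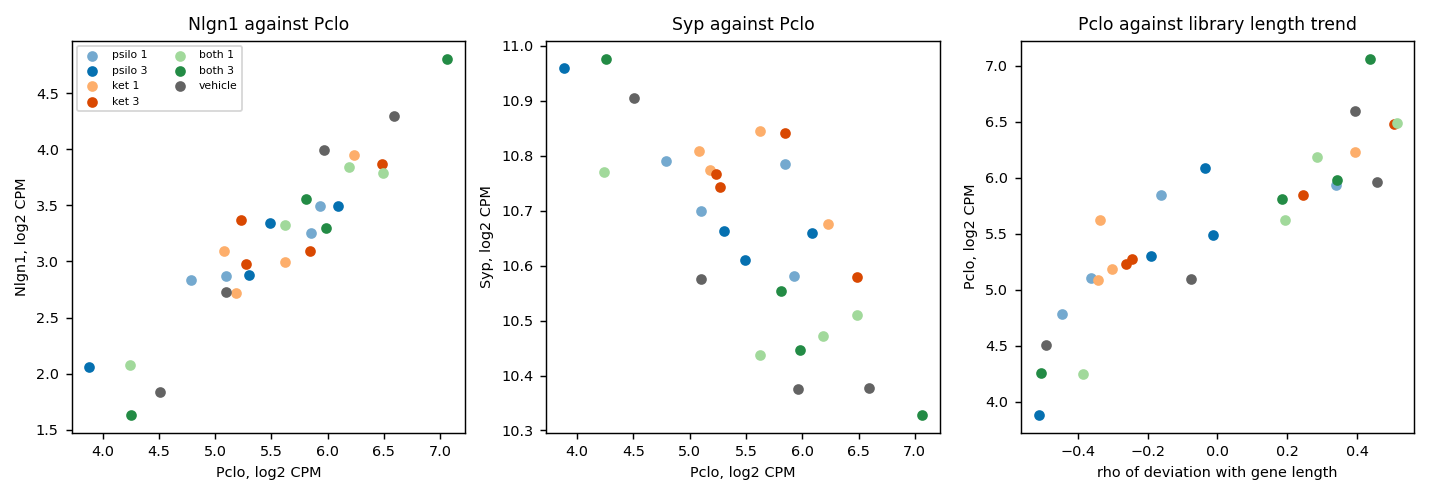
Level of Nlgn1 and of Syp against that of Pclo (log2 CPM), and level of Pclo against the rho of deviation with gene length of the library, with 1 point per animal, coloured by group. Nlgn1 rises with Pclo (r 0.937), Syp falls with it (r -0.767) and Pclo rises with the length rho (r 0.883), while points of all groups are mixed along each line.

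Many other genes varied with these 6 members too. Of the 10153 other genes past that same level, 10.8% had r above 0.8 with Pclo, 12.2% with Rims1, 10.6% with Nrxn3, 10.5% with Nlgn3, 8.95% with Nlgn1 and 8.83% with Bsn. For Syp it was 5.48%, for Nrxn2 0.522% and for Nlgn2 0.187%. An r under -0.6, as Syp had with all 6, was found for 27.4% of these genes with Pclo and for 26.9 to 28.5% with the other 5. The genes most like Pclo over the 28 animals were Ank2 (ankyrin-B, a membrane scaffold, r 0.982) and Ryr2 (a calcium release channel, 0.982). Those most like Rims1 were Zbtb4 and Efr3b (0.984 each), like Nrxn3 the kinesin Kif21a (0.979) and Prkacb (0.969), a catalytic subunit of protein kinase A, like Nlgn1 Nckap1 (0.958) and Kif21a (0.957), like Nlgn3 the non-muscle myosin Myh10 (0.966) and Add2 (0.960), and like Bsn Htt (huntingtin, 0.976) and Mprip (0.973). Syp was most like Rundc3a and Sgta (0.946 each). Nrxn2 was most like Cdk5r2 (0.928), an activator of the kinase Cdk5, and Lrrc4b (0.925), a postsynaptic adhesion protein, and Nlgn2 most like Atp9a (0.886), a lipid flippase, and the vesicle protein gene Syngr1 (synaptogyrin-1, 0.878). These r are descriptions over the same 28 libraries, which share depth and the length trend above.

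Of the adhesion partners of neurexins and neuroligins (37 genes, 35 tested, 36 records), 0 passed in any comparison. Their lowest edgeR adjusted p was 0.130, with both drugs against psilocybin alone at 1 mg/kg. The lowest p in the test of any difference was that of C1ql2, a secreted C1q-like protein that binds neurexins, at 4.12e-05 unadjusted and 0.179 adjusted by edgeR. It was at 2.21 ± 0.491 CPM with both drugs at 1 mg/kg against 5.28 ± 0.704 CPM in vehicle (SD, n = 4). This was a log2 difference of -1.25 (SE 0.420, edgeR adjusted p 1.00). Cbln2, a cerebellin that bridges neurexins to postsynaptic receptors, was at 61.6 ± 5.76 CPM after psilocybin at 3 mg/kg against 72.5 ± 4.17 CPM in vehicle (-0.24). Clstn3, a calsyntenin, differed by -0.12 with both drugs at 1 mg/kg. Partners lay above vehicle in 16 and 7 of 36 records after psilocybin at 1 and 3 mg/kg, in 16 and 26 after ketanserin, and in 18 and 21 with both drugs, where 44.2 to 47.8% of all genes lay above vehicle in these comparisons. Without replicate 4 of both drugs at 3 mg/kg the 21 became 8.

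Other active zone and release genes (26, 25 tested) also gave 0 calls. Cplx1 (complexin-1, a clamp of the fusion machinery) was at 719.8 ± 78.6 CPM with both drugs at 1 mg/kg against 829 ± 149 CPM in vehicle (-0.20) and Rph3a (rabphilin) differed by -0.30 after psilocybin at 3 mg/kg. Above vehicle lay 11 and 5 of 25 after psilocybin at 1 and 3 mg/kg, 11 and 16 after ketanserin, and 15 and 17 with both drugs, beside the same shares of all genes. The 17 became 8 without replicate 4. Synaptic vesicle genes (24, 23 tested) gave 0 calls and medians between -0.03 and 0.02 in the 6 comparisons with vehicle. Dnm1 (dynamin-1, of vesicle retrieval) was at 1565 ± 180.3 CPM with both drugs at 3 mg/kg against 1814 ± 136 CPM in vehicle (-0.21). Syt2, a fast calcium sensor of release, was at 5.47 ± 1.67 CPM after psilocybin at 3 mg/kg against 13.9 ± 4.27 CPM in vehicle (-1.34, SE 0.505, edgeR adjusted p 0.997), and Slc17a6, the vesicular glutamate transporter VGLUT2, at 6.81 ± 1.84 CPM after ketanserin at 1 mg/kg against 11.2 ± 2.95 CPM in vehicle (-0.71).

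Postsynaptic partners of neuroligins (21 genes, 22 records) gave 0 calls as well. Dlg4 (PSD-95, the scaffold that binds Nlgn1) was at 1382 ± 75.5 CPM after ketanserin at 1 mg/kg against 1174 ± 180.0 CPM in vehicle. Its log2 fold change was 0.23 (SE 0.113), beside 0.22 for Nlgn2 and -0.25 for Nlgn1 at the same dose. Of the 22 records, 12 lay above vehicle in that comparison and 10 below, where 44.2% of all genes lay above. Homer3, a postsynaptic scaffold protein, differed by 0.24 after psilocybin at 3 mg/kg. Median log2 fold changes against vehicle were -0.08 and -0.17 for psilocybin at 1 and 3 mg/kg, 0.03 and 0.05 for ketanserin, and 0.00 and 0.14 for both drugs, the last of these being -0.03 without replicate 4. The part of the length trend in these lists was not tested.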

How the data were processed

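The raw counts of reads per gene were used as the authors deposited them, per the file headers. The submitters' processing notes name featureCounts 1.5.0-p3, HISAT2 2.0.5 and StringTie 1.3.3b with the build rn6, without roles. Libraries mark strand, per the labels' protocols, but the strand setting of the counting was not given in the sources used here. FPKM values were deposited by the authors as well and were used here to order genes by level and for the shares of the neuroligins.

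Counts were analysed with edgeR 4.0.16 in R 4.3.3: filterByExpr by group (17404 genes left, 9 of 9 members), TMM factors, 1 coefficient for each group over 28 libraries (21 residual degrees of freedom), robust quasi-likelihood F tests, Benjamini-Hochberg adjustment over all tested genes, threshold 0.05. Library totals of 12783067 to 18538414 and 4 animals a group set the precision. Correlations used 100000 permutations in Python 3.11.15 with numpy 2.4.6 on log2 CPM (prior count 2). Promoter motifs were counted in RefSeq sequences of GRCr8, and no rn6 sequence was used. The labels call the libraries biological replicates but give them no numbers, so replicate numbers follow accession order and only name a library. Alternatives were DESeq2 1.42.0, RLE size factors, no filter on low counts, only the groups compared, a length trend taken out with lowess (span 0.3), and leaving out each library. Counts of list genes, and of members above and below, without the library that stood apart were added after seeing the data. Named genes were the 9 members, the 3 genes of each of 4 pathway lists with the smallest p for any difference, and the 2 genes most correlated with each member. Some genes under this rule are not reported here. Members, lists and tests were chosen with earlier results of these data known. Scripts were tested on simulated data.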

Additional observations from a re-analysis of the deposited data

Results flagged for a closer look

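In 4 of the 63 sets of 4 animals (9 genes in 7 groups) a single animal stood far from the other 3, by Dixon's gap test at the 95% level. Chance alone gives about 1 such set in 20. With psilocybin at 3 mg/kg, replicate 1 was at 1016 CPM for Nrxn2, where the other 3 animals reached at most 768 CPM. The same animal was at 1993 CPM for Syp, where the others reached 1621 CPM. After ketanserin at 1 mg/kg, replicate 4 was at 682 CPM for Bsn, with the others up to 512 CPM. That animal was also at 19.01 CPM for Nrxn3, with the others up to 11.3 CPM. Replicate 1 of psilocybin at 3 mg/kg had the lowest rho of deviation with gene length of the 28 libraries, -0.513. For replicate 4 of ketanserin at 1 mg/kg that rho was 0.394, against -0.342 to -0.302 in the other 3 of its group. The part of this measure in those levels was not tested.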

How the results depend on the processing

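No member passed an adjusted p of 0.05 in any comparison under DESeq2, RLE size factors, no filter on low counts, only the groups compared, the length trend taken out, or 28 fits that each left out a library. The lowest adjusted p of a member was 0.682, 0.696, 0.735, 0.698, 0.729 and 0.222 in these settings. Tests with an unadjusted p under 0.05 numbered 5 in the fit reported and 6, 6, 7 and 6 in the first 4 settings. With the length trend out there were 13, among them Syp with ketanserin pooled over doses (0.22, p 0.00473, adjusted p 1.00). The share of all genes under 0.05 unadjusted was taken only for the fit reported, where it was 1.3 to 5.74% by comparison. The counts of member tests in the other settings therefore have no such share to be read against. Syp at the 1 mg/kg interaction had an unadjusted p of 0.0476 in DESeq2. Of the 54 log2 fold changes of members against vehicle, the sign changed for 0 under DESeq2, RLE factors or only the groups compared, for 1 without a filter, for 5 with the length trend out (largest reported size 0.14), and for 70 of 432 values with a library left out (largest 0.38). Bsn with both drugs at 3 mg/kg against psilocybin alone ran from 0.16 to 0.57 without a library, and Pclo against vehicle in that group from -0.23 to 0.78, with vehicle replicate 3 left out at the high end. The cause was not tested. No paired analysis was possible because the labels give no replicate numbers that groups could share. Counts were lowest for Nlgn1, Nrxn3 and Pclo, at 44, 62 and 206 in their lowest library.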
